A study of Mus musculus with 18 samples.

Results

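Glycolysis was followed through 10 genes taken by symbol from the RNA-sequencing tables of mouse bone marrow progenitors: Slc2a1, Hk2, Gpi1, Pfkl, Aldoa, Gapdh, Pgk1, Eno1, Pkm and Ldha. All 10 were found among the 19780 genes of the LSK table and the 18428 genes of the CMP table, and all 10 passed the filter on low values in every comparison. The LSK compartment (Lin- Sca-1+ c-Kit+ cells, sorted here as CD16/32-) holds haematopoietic stem and multipotent progenitor cells, and CMPs (common myeloid progenitors) lie downstream of it. NZBW/F1 mice, the hybrids of the NZB and NZW strains, develop a lupus-like disease spontaneously. They were sampled young and before disease (F1-P) or old with lupus, defined by proteinuria (F1-L). Young (B6-Y) and old (B6-O) C57BL/6 mice were the LSK controls. All mice were female, and each of the 4 LSK and 2 CMP groups held 3 libraries, 18 in all. No C57BL/6 CMP library was analysed here. F1-L mice differed from F1-P mice in age as well as in disease, so that within NZBW/F1 both cannot be told apart. C57BL/6 and the NZB and NZW parents came from different suppliers, so strain and supplier cannot be told apart either. Whether the libraries of a group came from separate mice is not given in the sources used here, and the p-values measure the spread between these libraries.

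Glycolysis breaks glucose down to pyruvate in the cytosol and yields a little ATP without oxygen. Most cells then burn pyruvate in mitochondria, while lactate dehydrogenase turns it into lactate where oxygen is short or growth is fast. Haematopoietic stem cells in the hypoxic bone marrow niche are known for their reliance on glycolysis, and progenitors that leave quiescence shift towards mitochondrial respiration. Many glycolysis genes are targets of the transcription factor Hif1a, which binds the letters ACGTG or GCGTG.

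The members lie on autosomes and on the X chromosome of GRCm38 (the mm10 build to which the authors aligned), with these whole-gene positions in GENCODE M21. Slc2a1 (ENSMUSG00000028645.11, chr4:119108711-119137983) and Eno1 (ENSMUSG00000063524.13, chr4:150236721-150248879) lie on the plus strand of chromosome 4, and Hk2 (ENSMUSG00000000628.10, chr6:82725025-82774454) and Gapdh (ENSMUSG00000057666.18, chr6:125161715-125166467) on the minus strand of chromosome 6. Chromosome 7 carries Gpi1 (ENSMUSG00000036427.5, chr7:34201330-34230336) and Aldoa (ENSMUSG00000030695.16, chr7:126795234-126800751) on the minus strand and Ldha (ENSMUSG00000063229.15, chr7:46841475-46855627) on the plus strand. Pfkl (ENSMUSG00000020277.10, chr10:77986947-78010083) lies on the minus strand, and Pgk1 (ENSMUSG00000062070.12, chrX:106187100-106203699) and Pkm (ENSMUSG00000032294.17, chr9:59656368-59679375) on the plus strand. A second, less abundant identifier that also carries the symbol Aldoa was kept apart.

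The 250 bases before the transcription start of 4 members are printed here from RefSeq (GRCm38.p6), 5' to 3' along the gene. Hk2, Gpi1 and Pkm are shown because every NZBW/F1 LSK library lay below every C57BL/6 LSK library for them, and Ldha because it did not pass the test in that comparison while its window holds the motif. Capitals mark ACGTG or GCGTG on either strand (CACGT and CACGC on the opposite strand, and CACGTG holds ACGTG on both).
Hk2, chr6:82774455-82774704, minus strand: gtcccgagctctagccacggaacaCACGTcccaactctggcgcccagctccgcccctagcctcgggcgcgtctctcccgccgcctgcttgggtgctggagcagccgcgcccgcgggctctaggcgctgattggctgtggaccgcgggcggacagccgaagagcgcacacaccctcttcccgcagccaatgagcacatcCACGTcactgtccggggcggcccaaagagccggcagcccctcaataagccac
Gpi1, chr7:34230337-34230586, minus strand: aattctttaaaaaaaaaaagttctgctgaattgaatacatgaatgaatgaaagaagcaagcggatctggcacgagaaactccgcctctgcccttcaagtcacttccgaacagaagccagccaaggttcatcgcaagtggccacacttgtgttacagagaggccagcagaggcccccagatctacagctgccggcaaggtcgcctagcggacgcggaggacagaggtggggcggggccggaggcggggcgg
Pkm, chr9:59656326-59656575, plus strand: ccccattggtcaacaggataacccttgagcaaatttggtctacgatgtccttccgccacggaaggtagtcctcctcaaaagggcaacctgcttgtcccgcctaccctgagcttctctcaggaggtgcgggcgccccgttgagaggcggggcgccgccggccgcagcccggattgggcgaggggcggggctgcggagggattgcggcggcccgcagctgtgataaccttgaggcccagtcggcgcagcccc
Ldha, chr7:46845554-46845803, plus strand: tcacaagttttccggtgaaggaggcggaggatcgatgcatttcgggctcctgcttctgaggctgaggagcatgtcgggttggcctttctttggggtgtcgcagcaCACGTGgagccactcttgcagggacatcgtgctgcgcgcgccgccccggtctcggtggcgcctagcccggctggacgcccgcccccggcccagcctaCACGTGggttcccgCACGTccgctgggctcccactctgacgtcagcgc
The window of Hk2 held 2 separate matches and that of Ldha 3, and those of Gpi1 and Pkm held 0. Over the first listed start of each member, 7 of 10 windows (70%) held at least 1 match and 50% held 2 or more, against 38.6% and 13.5% of the windows of all 27025 symbols. Pkm and Aldoa had a match before a later listed start, which made 9 of 10 over any start. Several starts give a gene more chances of a match, and the share of all symbols over any start is not given here. A match is a stretch of letters and not a binding site, and the members lower in NZBW/F1 were found both with and without one.

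The libraries held 23772252 to 28493747 reads in LSK and 20001328 to 24761060 in CMP, and no member had fewer than 114 reads in any library. Values are CPM as deposited (reads relative to a scaled library size), and fold changes are differences of log2(CPM + 1). A gene was called where limma's Benjamini-Hochberg adjusted p over all tested genes was at most 0.05 and the fold exceeded 1.5. The gate gene Ly6a, which encodes Sca-1, lay at 35.5 CPM or more in LSK and at 6.70 CPM or less in CMP, whose gate the methods write as Sca-1+. In LSK, immunoglobulin genes took 16.8% to 36.6% of the reads of NZBW/F1 libraries and 0.301% to 4.76% of those of C57BL/6. The C57BL/6 libraries numbered 3 stood apart from the other 10 LSK libraries in both age groups, and the results that rest on them are given with and without them.

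**Figure D1:**
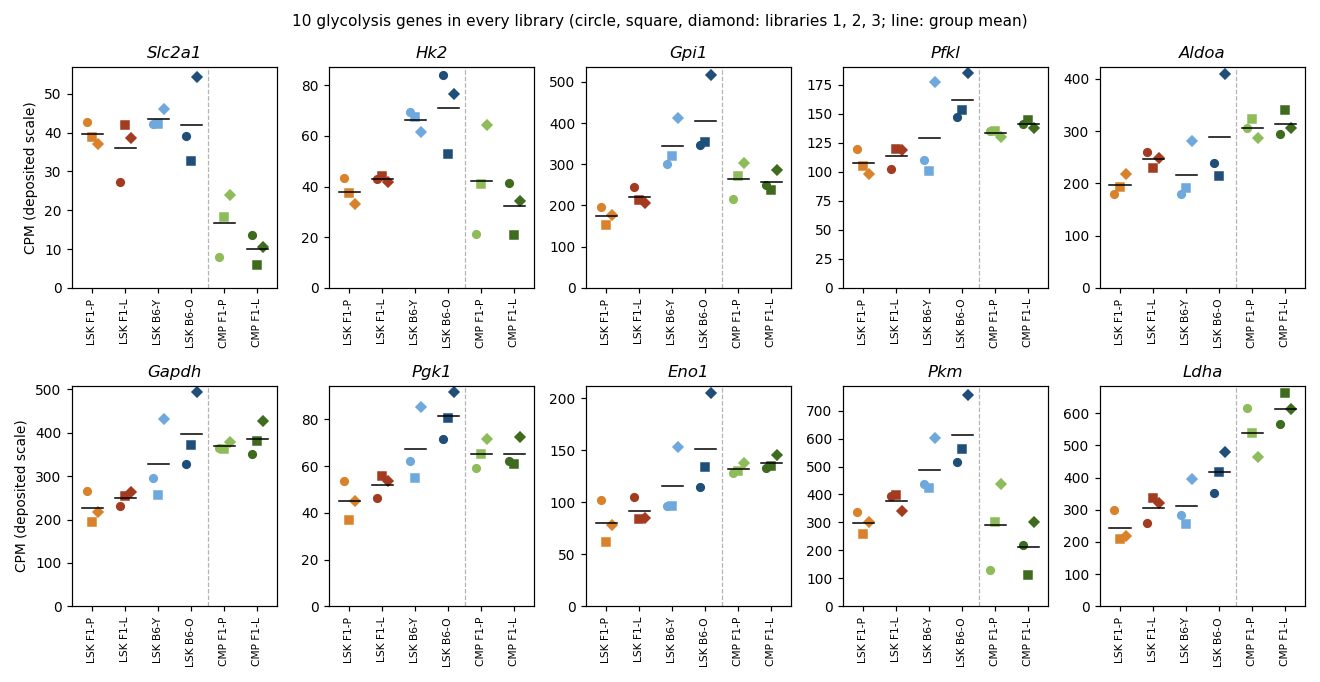
Deposited CPM (y axes, linear, from 0) of the 10 glycolysis genes in the 4 LSK and 2 CMP groups, with 1 point per library (circle, square and diamond for libraries 1, 2 and 3) and a line at the group mean. For Hk2, Gpi1 and Pkm, all NZBW/F1 LSK points lie under all C57BL/6 LSK points, and the tables to the left and right of the dashed line were normalized separately.

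Of the 10 glycolysis genes, 5 were called lower in NZBW/F1 than in C57BL/6 LSK averaged over both ages (Hk2, Gpi1, Pgk1, Eno1 and Pkm) and 0 higher. Without the C57BL/6 libraries numbered 3, the calls were 2 (Hk2 and Gpi1). Slc2a1, Pfkl, Aldoa, Gapdh and Ldha were not called. By comparison, 7.05% of the 15084 genes tested were called lower and 12% higher. The estimates of all 10 members were below 0, also with every scaling tried, and Aldoa alone turned to 0.10 without the C57BL/6 libraries numbered 3. Their median log2 fold change was -0.59, against -0.03 over all tested genes. In 3 members the 6 NZBW/F1 libraries did not overlap with the 6 C57BL/6 libraries (Hk2, Gpi1 and Pkm, all lower), as in 5.81% of tested genes in that direction. On plain CPM of the library total, which shifts the median of all genes to -0.39, 8 members were called lower and all genes split into 1243 higher and 4306 lower, in place of 1805 and 1064. Lower RNA per cell and fewer cells of a kind rich in these transcripts cannot be told apart in such bulk libraries.

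Entry of glucose was followed by Slc2a1, which encodes the glucose transporter Glut1, and by Hk2, whose hexokinase traps glucose in the cell as glucose-6-phosphate. Slc2a1 lay at 27.3 to 42.7 CPM in the 6 NZBW/F1 and at 32.7 to 54.4 CPM in the 6 C57BL/6 LSK libraries. These ranges overlapped, and a log2 difference of -0.17 ± 0.14 (SE, adjusted p = 0.359) did not pass the test. Hk2 was at 43.5, 37.5 and 32.99 CPM in F1-P, at 43.2, 44.1 and 41.8 in F1-L, at 69.4, 67.5 and 61.6 in B6-Y and at 83.9, 53.1 and 76.6 in B6-O. Every NZBW/F1 library was below the lowest C57BL/6 library, the B6-O library numbered 2. The means were 40.5 ± 4.39 CPM in NZBW/F1 and 68.7 ± 10.9 in C57BL/6 (SD, n = 6 each), and Hk2 was 1.67-fold lower in NZBW/F1 (-0.74 ± 0.12 SE on the log2 scale, adjusted p = 0.000543).

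The upper part of the pathway comprised Gpi1 (glucose-6-phosphate isomerase), Pfkl (the liver-type subunit of phosphofructokinase, which commits glucose to glycolysis) and Aldoa (aldolase A, which splits the sugar). Gpi1 showed the largest difference of the 10. It was at 196, 152 and 178 CPM in F1-P, at 245, 214 and 206 in F1-L, at 301, 320 and 412 in B6-Y and at 347, 354 and 517 in B6-O. The highest NZBW/F1 library thus lay below the lowest C57BL/6 library. The means of 198 ± 31.8 and 375 ± 79.1 CPM (SD, n = 6 each) corresponded to a 1.87-fold lower level (-0.91 ± 0.13 SE on the log2 scale, adjusted p = 0.000281). Pfkl (98.2 to 119 CPM in NZBW/F1, 100.3 to 185 in C57BL/6) and Aldoa (179 to 260 and 180 to 410 CPM) overlapped between the strains and were not called, with log2 fold changes of -0.36 (adjusted p = 0.0632) and -0.14 (adjusted p = 0.542).

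In the lower part, Gapdh makes NADH by oxidising glyceraldehyde-3-phosphate, Pgk1 yields the first ATP, Eno1 makes phosphoenolpyruvate and Pkm, pyruvate kinase, turns it into pyruvate with a further ATP. Pkm was at 336, 257 and 300 CPM in F1-P, at 393, 399 and 341 in F1-L, at 436, 425 and 602 in B6-Y and at 516, 563 and 756 in B6-O. All 6 NZBW/F1 libraries were again below all 6 C57BL/6 libraries, though the highest F1-L library was close to the lowest B6-Y library. The means were 338 ± 54.2 and 550 ± 123 CPM (SD, n = 6 each), a 1.61-fold lower level in NZBW/F1 (-0.69 ± 0.14 SE on the log2 scale, adjusted p = 0.00248). Pgk1 ranged over 36.8 to 55.6 CPM in NZBW/F1 and 55.1 to 91.6 CPM in C57BL/6, so that the ranges overlapped narrowly (-0.60 ± 0.13 SE on the log2 scale, adjusted p = 0.00437). Eno1 ranged over 61.7 to 105 and 96.2 to 205 CPM and overlapped in part (-0.60 ± 0.18 SE on the log2 scale, adjusted p = 0.0254). Both lay just past the fold of 1.5, at 1.52-fold and 1.51-fold lower. Gapdh, at 195 to 266 CPM against 257 to 493, passed the adjusted p (0.0117) but fell short of the fold at 1.495-fold lower, and was not called. These 3 genes lay near the limits of the call, as the libraries left out in turn show. Pgk1 fell under the fold without B6-O 3 (-0.56), B6-Y 3 (-0.51), F1-L 1 (-0.56) or F1-P 2 (-0.53). Eno1 was not called without B6-O 3 (-0.48), B6-Y 3 (-0.49), F1-L 2 (-0.57), F1-L 3 (-0.57), F1-P 2 (-0.51) or F1-P 3 (-0.59). Gapdh was called without B6-O 1 (-0.64), B6-O 2 (-0.60), B6-Y 1 (-0.61), B6-Y 2 (-0.66), F1-L 2 (-0.59), F1-L 3 (-0.60) or F1-P 1 (-0.64). Hk2, Gpi1 and Pkm were called without any one of the 12 libraries.

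Ldha, which regenerates NAD+ by turning pyruvate into lactate, was at 299, 210 and 219 CPM in F1-P, at 259, 336 and 322 in F1-L, at 284, 255 and 396 in B6-Y and at 353, 417 and 480 in B6-O. The 3 B6-O libraries lay above all 6 NZBW/F1 libraries, while B6-Y overlapped with both NZBW/F1 groups and with B6-O. The difference between the strains, -0.40 ± 0.14 (SE) on the log2 scale with adjusted p = 0.0566, was not called.

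**Figure D2:**
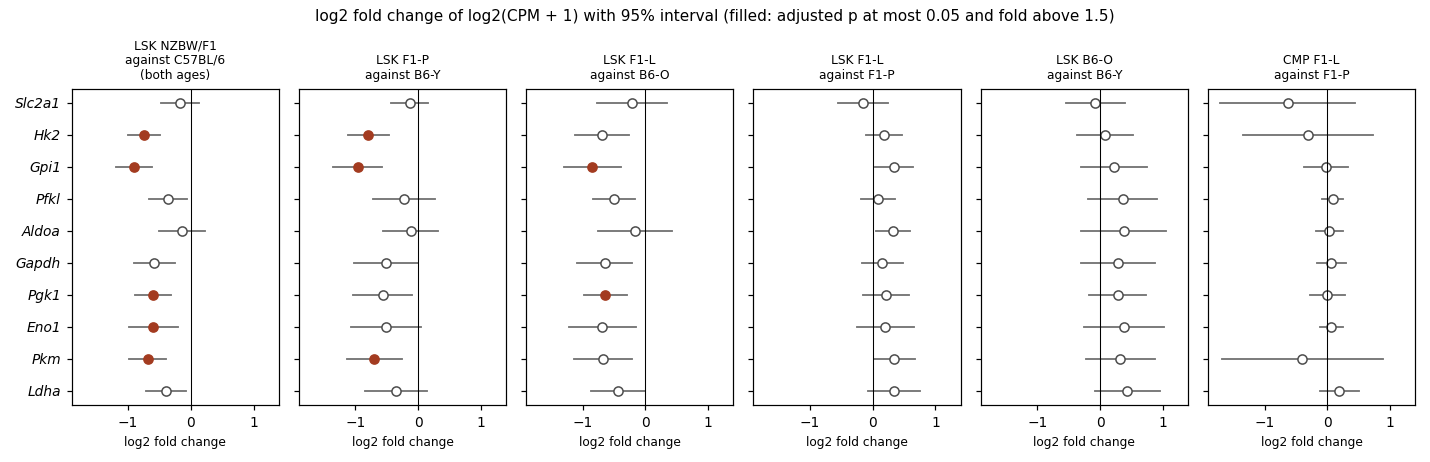
log2 fold change of log2(CPM + 1) (x axes, linear) for the 10 glycolysis genes in 6 comparisons, with 95% intervals as lines, and filled points for called genes. Filled points occur only in the 3 panels that set NZBW/F1 against C57BL/6 LSK (5, 3 and 2 genes), all left of 0.

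Taken at each age, the strain difference was called in 3 members among young mice (F1-P against B6-Y) and in 2 among old mice (F1-L against B6-O). Among young mice, Gpi1 was 1.95-fold lower in F1-P (-0.96 ± 0.17 SE on the log2 scale, adjusted p = 0.0072), Hk2 1.73-fold lower (-0.79, SE 0.14, adjusted p = 0.00762) and Pkm 1.62-fold lower (-0.70, SE 0.19, adjusted p = 0.04), while 6.18% of the 14380 genes tested were called lower. In 4 members (these 3 and Pgk1) the 3 F1-P libraries lay below the 3 B6-Y libraries, as did 18.1% of tested genes. Pkm was no longer called without B6-Y library 1, B6-Y library 3, F1-P library 2 or F1-P library 3 (log2 fold change -0.77, -0.54, -0.60 and -0.71, adjusted p = 0.0872, 0.0642, 0.179 and 0.124), and Hk2 and Gpi1 remained called without any of the 6 libraries.

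Among old mice, Gpi1 was 1.80-fold lower in F1-L (-0.85 ± 0.19 SE on the log2 scale, adjusted p = 0.0332) and Pgk1 1.56-fold lower (-0.64, SE 0.14, adjusted p = 0.0308), against 3.75% of 14381 genes called lower. In 8 of 10 members the F1-L libraries all lay below the B6-O libraries (all but Slc2a1 and Aldoa), as in 20% of tested genes. The median of the members was -0.64, against -0.03 over all tested genes. Both calls were sensitive to leaving out single libraries. Without B6-O library 3, Gpi1 stayed called (-0.66, adjusted p = 0.0104) and Pgk1 fell under the fold (-0.55, adjusted p = 0.0259). Gpi1 lost its call without B6-O 1, B6-O 2, F1-L 1, F1-L 2 or F1-L 3, with log2 fold changes of -0.95, -0.94, -0.92, -0.83 and -0.80 and adjusted p of 0.0684, 0.0716, 0.0988, 0.129 and 0.153. Pgk1 lost its call without the same 5 libraries, with log2 fold changes of -0.72, -0.64, -0.56, -0.69 and -0.67 and adjusted p of 0.0572, 0.105, 0.132, 0.0923 and 0.124. Over all genes, the 1667 calls with 6 libraries dropped to between 448 and 806 without any of these 5, and rose to 2285 without B6-O 3. Hk2, at -0.69 (adjusted p = 0.0557) with all libraries, was called without B6-O 2 (-0.88, adjusted p = 0.021).

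The C57BL/6 libraries numbered 3 carried the highest value of their group for 9 of the 10 members in B6-Y and again in B6-O, with Hk2 as the exception in both. In F1-P, library 1 likewise held the highest value for 9 of the 10. The C57BL/6 libraries numbered 3 also had relatively more of short transcripts. Across 15084 genes, the Spearman rho of a library's deviation from the mean of all LSK libraries with transcript length was -0.23 in B6-Y 3 and -0.40 in B6-O 3, and between -0.05 and 0.25 in the other 10 LSK libraries. The corresponding rho with GC content was 0.16 and 0.23, against -0.19 to 0.05. These are descriptions over genes, which are not independent replicates. The longest transcripts of the members had a median of 2814 bases and 53.3% GC, those of all tested genes 3131 bases and 49.4%.

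Without both libraries the strain difference was called in 2 of 10 members, Hk2 (log2 fold change -0.73, adjusted p = 0.00238) and Gpi1 (-0.74, adjusted p = 0.000274). Pkm was then at -0.53 (adjusted p = 0.00269), Pgk1 at -0.47 (adjusted p = 0.0108) and Eno1 at -0.37 (adjusted p = 0.0628), so that Pkm and Pgk1 passed the adjusted p but not the fold of 1.5. Ranges without them were 425 to 563 CPM for Pkm and 301 to 354 CPM for Gpi1 in C57BL/6. For both genes the libraries numbered 3 held the highest value of their group, so the C57BL/6 minimum was the same without them. That the strains still did not overlap was thus fixed in advance and adds nothing. With transcript length corrected within each library, 3 members were called (Hk2, Gpi1 and Pkm), and Pgk1 and Eno1 dropped to -0.50 each.

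**Figure D3:**
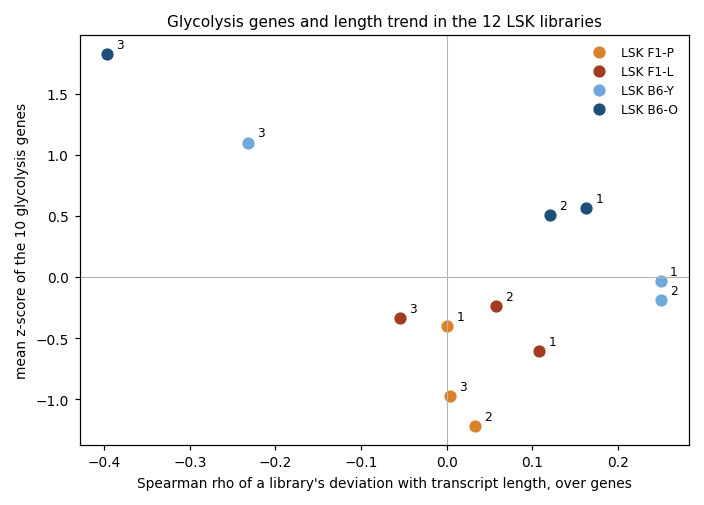
Mean z-score of the 10 glycolysis genes (y axis) against the Spearman rho of the library's deviation with transcript length over 15084 genes (x axis), with 1 point per LSK library labelled by its number and coloured by group. B6-Y 3 and B6-O 3 lie apart at rho -0.23 and -0.40 and have the highest scores, 1.10 and 1.83. All 6 NZBW/F1 libraries have scores below 0, as do B6-Y 1 (-0.03) and B6-Y 2 (-0.19).

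Markers of other cells also differed between the strains in LSK, where 12% of all tested genes were called higher and 7.05% lower. All 8 plasma cell markers were called higher in NZBW/F1, with a summed level of 9742 to 37905 CPM against 253 to 2529 CPM in C57BL/6. Of 7 T and NK cell markers, 6 were called higher (summed level 130 to 272 against 41.9 to 102 CPM). Of 11 neutrophil markers, 0 were called, and their sums covered like ranges (301 to 12373 and 485 to 10719 CPM). All 14 cycling markers had estimates below 0 and 3 of them were called lower, with sums of 1669 to 2331 CPM in NZBW/F1 and 2162 to 3211 CPM in C57BL/6. Of 7 B cell markers 3 were called higher (157 to 430 against 58.4 to 437 CPM), of 7 stromal markers 2 higher and 1 lower (119 to 144 against 128 to 177 CPM), of 7 erythroid markers 1 lower (33.1 to 2879 against 32.2 to 655 CPM) and of 7 monocyte and macrophage markers 0 (58.5 to 352 against 62.7 to 158 CPM). No marker of these lists was at 0 in all libraries of either strain. Of 14 gate markers, Ly6a was called higher (log2 fold change 3.11) and 4 were called lower, of which Cd34, a progenitor surface marker, fell most (-1.33). Their part in the values of the glycolysis genes between the strains was not tested.

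Reads of NZBW/F1 mice were aligned to mm10, which was built from C57BL/6, and several members have near-identical copies in that genome. Of the 75-base windows of a member's longest transcript tagged as principal in GENCODE (75 bases being the read length), 80.3% were shared with another annotated gene for Gapdh, 67.5% for Pgk1, 65.4% for Eno1, 19.6% for Pkm, 14.8% for Gpi1, 5.38% for Ldha, 1.53% for Aldoa and 0.973% for Slc2a1, and 0% for Hk2 and Pfkl. How reads with several places were counted is not given in the sources used here. Of 53 genes in the LSK table that share such a window with a member, 9 passed the filter in the strain comparison, 4 were called higher and 0 lower. These 4 are named after their values were seen.

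Gm1840, a processed pseudogene that shares sequence with Gpi1, was at 19.3 to 32.3 CPM in NZBW/F1 and at 1.18 to 2.06 CPM in C57BL/6 LSK (log2 fold change 3.35, adjusted p = 1.1e-08). Gm13394, which shares sequence with Gapdh, was at 20.8 to 32.03 against 0.0334 to 0.155 CPM (4.74, adjusted p = 1.5e-10). Eno1b, which shares sequence with Eno1, was at 8.93 to 17.8 against 0.0338 to 0.172 CPM (3.73, adjusted p = 7.3e-09). These 3 thus had signal in every NZBW/F1 library and little in C57BL/6, where Gm13394 and Eno1b rested on 1 to 5 reads a library, so that their fitted changes depend on the pseudocount of 1 and are no bounds. Gm4735, which also shares sequence with Eno1, was at 1.89 to 3.44 against 0.031 to 0.167 CPM (1.67, adjusted p = 3.5e-06). It too rested on 1 to 5 reads a library in C57BL/6, so its fitted change likewise depends on the pseudocount. In NZBW/F1 CMPs the same genes were at 30.3 to 37.4 CPM (Gm1840), 38.6 to 51.0 (Gm13394), 24.5 to 28.3 (Eno1b) and 3.05 to 4.23 (Gm4735).

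With the values of all sharing genes added to their member, Gpi1 stayed lower in NZBW/F1 over both ages (log2 fold change -0.74, adjusted p = 0.00133), and Eno1 was no longer called (-0.35, adjusted p = 0.169). Gapdh moved from -0.58 to -0.39. Its sum also took in the protein-coding gene Peli2, at 16.5 to 31.5 CPM in NZBW/F1 and 22.3 to 31.3 CPM in C57BL/6 LSK. Among old mice Gpi1 lost its call (-0.68, adjusted p = 0.0694). Hk2, which shares no window, and Pgk1, whose 4 sharing genes are not in the tables, were the same by construction.

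**Figure D4:**
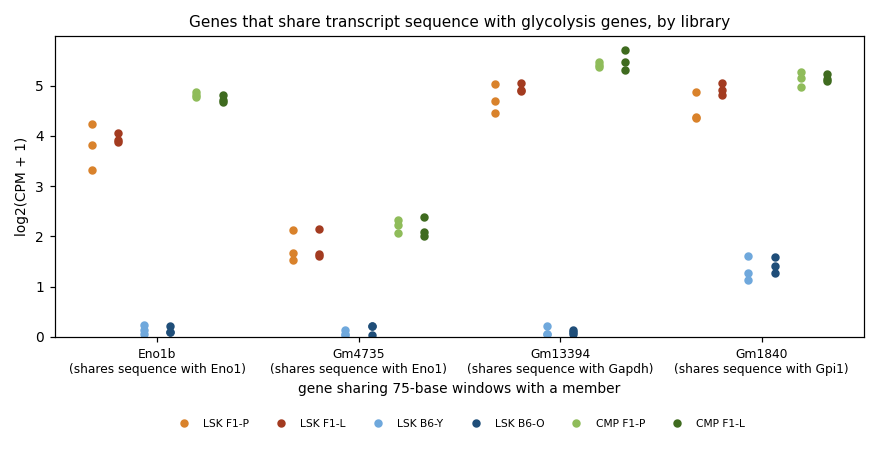
log2(CPM + 1) (y axis) of the 4 called genes that share 75-base windows with Eno1, Gapdh or Gpi1 (x axis), with 1 point per library coloured by group. All NZBW/F1 points, LSK and CMP, lie above all C57BL/6 points for each gene, and 3 of the genes are near 0 in C57BL/6.

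Within NZBW/F1 LSK, the glycolysis genes did not pass the test between F1-L and F1-P. limma called 0 of 10 members and 4 of 14332 genes (0.0279%), and edgeR's and DESeq2's tests also called 0 of 10. At an unadjusted p under 0.05 there were 3 members, Gpi1 (0.34 ± 0.13 SE on the log2 scale, adjusted p = 0.336), Aldoa (0.32, SE 0.11, adjusted p = 0.305) and Pkm (0.35, SE 0.14, adjusted p = 0.363), against 12.8% of all genes tested. They are the same 3 in which every F1-L library lay above every F1-P library, as in 10.4% of tested genes. Aldoa, for example, was at 179, 194 and 217 CPM in F1-P and at 260, 229 and 249 in F1-L. The median of the 10 was 0.20, against -0.01 over all tested genes. Slc2a1 alone had an estimate below 0 (-0.16), and on plain CPM of the library total it was at 0.08. limma called 0 of 11 neutrophil, 0 of 8 plasma cell and 0 of 7 B cell markers in this comparison, of which 11, 3 and 4 had an unadjusted p under 0.05, and their sums did not overlap between the groups. The summed neutrophil markers were at 301 to 1281 CPM in F1-P and 1983 to 12373 CPM in F1-L, the plasma cell markers at 14635 to 37905 and 9742 to 13036 CPM, and the B cell markers at 299 to 430 and 157 to 200.2 CPM. The sums of the gate, erythroid, monocyte and macrophage, T and NK cell, stromal and cycling markers overlapped between the groups. The part of all these markers in the values of the glycolysis genes was not tested.

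In C57BL/6 LSK, limma called 0 of 10 members between B6-O and B6-Y, and edgeR's and DESeq2's tests also called 0 of 10. None reached an unadjusted p under 0.05, against 927 of 14005 genes (6.62%), and no member separated the 3 old from the 3 young libraries, as 5.69% of genes did upwards and 5.57% downwards. Ldha had the largest estimate (0.43, SE 0.22, adjusted p = 0.821), with a 95% interval of -0.08 to 0.95. The median of the members was 0.31, against 0.02 over all genes. The libraries numbered 3 stood out within each group. Aldoa was at 281 CPM in B6-Y 3 and 410 CPM in B6-O 3, while the other 4 C57BL/6 libraries lay between 180 and 239 CPM. Without the libraries numbered 3, both B6-O libraries lay above both B6-Y libraries for Gpi1, Pfkl, Aldoa, Gapdh, Pgk1, Eno1, Pkm and Ldha. Slc2a1 was then lower in B6-O, and Hk2 overlapped. The share of all genes that separate in this way is not given here. Over all genes, limma then called 96, in place of 0.

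The test of the difference between both changes (F1-L minus F1-P against B6-O minus B6-Y) called 0 of 10 members with limma, edgeR and DESeq2. None had an unadjusted p under 0.05, while 3.92% of the 15084 genes did. The estimates lay between -0.28 (Pfkl, 95% interval -0.88 to 0.32) and 0.12 (Gpi1, 95% interval -0.46 to 0.69), and the 95% intervals of the 10 reached from -0.96 (Eno1) to 0.69 (Gpi1). The changes within NZBW/F1 and within C57BL/6 share no libraries, while both strain comparisons use the same libraries as these changes.

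In CMPs, analysed here from NZBW/F1 alone, limma called 0 of 10 members between F1-L and F1-P and 1 of 12926 genes (0.00774%). edgeR's and DESeq2's tests also called 0 of 10, and no member had an unadjusted p under 0.05, against 9.8% of all genes. The median of the members was 0.02, against 0.04 over all genes. Only for Pfkl did the groups not overlap (129 to 135 CPM in F1-P and 138 to 144 CPM in F1-L), as in 9.45% of tested genes in that direction, with an estimate of 0.08 ± 0.07 (SE) on the log2 scale (adjusted p = 0.709). The difference between the LSK and the CMP change was not tested.

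The members differed in how much they varied between the CMP libraries. Over the 6 libraries, Pkm ran from 113 to 438 CPM (3.89 times), Hk2 from 20.7 to 64.3 CPM (3.11 times) and Slc2a1 from 5.88 to 23.8 CPM (4.05 times). Ldha spanned 464 to 662 CPM, 1.43 times. For Pkm, Hk2 and Slc2a1 the lowest library was F1-L 2 and the highest F1-P 3, and for Ldha it was the reverse. This order went with Klf1, an erythroid transcription factor, which was at 326 CPM in F1-P 1, 317 in F1-L 2, 221 in F1-L 3, 219 in F1-L 1, 192 in F1-P 2 and 125 in F1-P 3. Pkm in the same order was at 129, 113, 302, 219, 300.2 and 438 CPM. The myeloid gene Mpo was at 1394, 1052, 3274, 2242, 2665 and 3943 CPM, and Cd34 at 194, 154, 305, 282, 316 and 572 CPM. F1-P 1 and F1-L 2 thus had the most Klf1 and the least Pkm, Hk2, Slc2a1, Mpo and Cd34, and they belong to different groups. Gpi1 was lowest there as well (216 and 237 CPM) and highest in F1-P 3 (302 CPM), in a narrower range.

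Other isozymes of the pathway went with one or the other side. Pklr, the liver and red cell pyruvate kinase, ran from 76.5 CPM in F1-P 3 to 232 CPM in F1-P 1, and Hk1, the widespread hexokinase, from 382 CPM in F1-P 3 to 741 CPM in F1-L 2. Slc16a1, which encodes a lactate transporter, covered 144 to 300 CPM with the same ends as Hk1. Hk3, a myeloid hexokinase, ran the other way, from 48.7 CPM in F1-L 2 to 239 CPM in F1-P 3. Without F1-P 1 and F1-L 2, 0 of 10 members were called, and 646 of all genes were. The summed level of 11 neutrophil markers was 315 to 8442 CPM in F1-P and 64.2 to 431 CPM in F1-L. That of the 6 erythroid markers in the table was 431 to 1537 and 128 to 243 CPM. From most to least Klf1, the erythroid sums were 431, 243, 190, 128, 511 and 1537 CPM. They thus did not follow Klf1 and were highest in F1-P 3, the library with least Klf1. The part of these markers in the spread of the glycolysis genes was not tested.

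**Figure D5:**
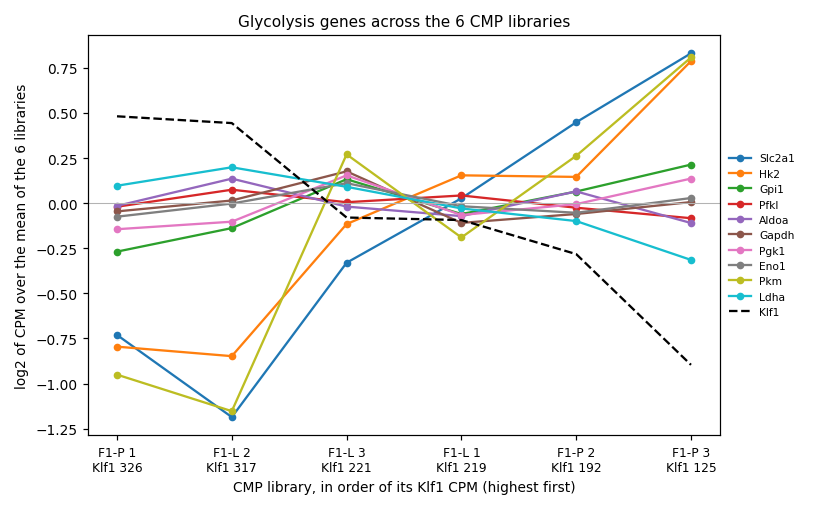
log2 of CPM over the mean of the 6 CMP libraries (y axis) for the 10 glycolysis genes and Klf1 (dashed), with libraries on the x axis in order of their Klf1 CPM from 326 to 125. Slc2a1, Hk2 and Pkm are lowest in the 2 libraries with most Klf1 and highest in the library with least, Ldha runs the other way in a range of 1.43 times, and the other 6 vary less.

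Set side by side within NZBW/F1, 6 of the 10 members had all CMP libraries above all LSK libraries, 1 had them below and 3 overlapped. The tables were normalized separately, so these levels are descriptions with no test. How many of all genes separate between the tables is not given here, so the counts are no result about these members. Ldha stood at 577 ± 70.2 CPM in CMP and 274 ± 53.4 CPM in LSK (SD, n = 6 each), 2.10 times. Gapdh, Eno1, Aldoa, Pgk1 and Pfkl were 1.59, 1.57, 1.397, 1.35 and 1.24 times as high in CMP. Slc2a1 was the member with the reverse order, at 37.7 ± 5.55 CPM in LSK and 13.4 ± 6.70 CPM in CMP. Hk2, Gpi1 and Pkm overlapped.

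Per kilobase of merged exons, Ldha had the highest mean level in NZBW/F1 LSK and in CMP and was level with Pkm in C57BL/6 LSK (both at 110 CPM per kilobase). Per kilobase of the longest transcript, Pkm came first in C57BL/6 LSK, with 22.9% of the sum of the 10 against 20.3% for Ldha. The order thus depends on the length used. Gapdh had 4133 bases of merged exons and a longest transcript of 3289, while its principal transcript held 1346 windows of 75 bases. An order by principal transcripts was not computed. It may also depend on how shared reads were counted, with 80.3%, 67.5% and 65.4% of windows shared for Gapdh, Pgk1 and Eno1. Ldha stood at 82.8 ± 16.1 CPM per kilobase in NZBW/F1 LSK, 110 ± 25.6 in C57BL/6 LSK and 174 ± 21.2 in CMP (SD, n = 6 each). Hk2 or Slc2a1 had the lowest, with Hk2 at 6.78 ± 0.73 in NZBW/F1 LSK and Slc2a1 at 3.82 ± 1.91 in CMP. In NZBW/F1 LSK Ldha was followed by Aldoa, Pkm and Gapdh, whose ranges overlapped with their neighbours, then by a gap to Gpi1, Pgk1, Pfkl, Eno1 and Slc2a1, and by another gap to Hk2. In C57BL/6 LSK the order was Ldha and Pkm, then Gapdh, Aldoa and Gpi1, and a gap separated these from Pgk1, Eno1, Pfkl, Slc2a1 and Hk2. In CMP, Ldha stood clear of Aldoa, and Gpi1 and Pgk1, Eno1 and Pfkl, and Pfkl and Hk2 were each separated as well. The summed level of the 10 per kilobase was 351 ± 40.5 CPM in F1-P, 422 ± 10.8 in F1-L, 493 ± 111 in B6-Y and 619 ± 133 in B6-O LSK, and 541 ± 22.8 and 553 ± 32.1 in F1-P and F1-L CMP (SD, n = 3 each). Of this sum, Ldha made up 21.3% in NZBW/F1 LSK, 19.8% in C57BL/6 LSK and 31.9% in CMP, and Pkm 17.4%, 19.8% and 9.06%.

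The isozymes and steps not among the members had calls in both directions in the strain comparison of LSK. Of 21 such genes 16 were tested, 4 were called higher and 1 lower, and their median was 0.19. Of all tested genes, 12% were called higher and 7.05% lower in this comparison, which is also the background for the lists below. Higher in NZBW/F1 were Eno1b, described above, Pgam2, the muscle phosphoglycerate mutase (log2 fold change 1.93, adjusted p = 3.3e-05), Eno3, muscle enolase (0.74, adjusted p = 0.0221), and Pfkp, the platelet subunit of phosphofructokinase (0.66, adjusted p = 0.00347). Pfkp was at 75.4 to 121 CPM in NZBW/F1 and at 55.2 to 83.3 CPM in C57BL/6. Aldoc, an aldolase isozyme known from brain, was lower (-0.75, adjusted p = 0.0243). Tpi1, the triose phosphate isomerase, had an estimate of -0.46 (adjusted p = 0.0589), Hk1 of -0.28 (adjusted p = 0.0837) and Pgam1 of -0.03 (adjusted p = 0.893).

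Of 14 glucose and lactate transporters 10 were tested, and only Slc16a7, which encodes a monocarboxylate transporter, was called (-0.62, adjusted p = 0.013). Among 10 tested genes that set the flux, Fbp1, the fructose-bisphosphatase of gluconeogenesis, was the only call and was higher (1.16, adjusted p = 0.000141). Of 8 pentose phosphate genes Tkt, transketolase, was lower (-0.63, adjusted p = 0.00854). limma called 0 of 13 genes for the entry of pyruvate into mitochondria (median -0.04, 3 at an unadjusted p under 0.05) and 0 of 17 of the tricarboxylic acid cycle (median -0.15, 4 at an unadjusted p under 0.05), against 41.9% of all tested genes at that level.

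In the HIF pathway, 1 of 8 genes was called higher and 1 lower, near the shares of all tested genes (12% and 7.05%). Epas1, which encodes HIF-2 alpha, was higher in NZBW/F1 (log2 fold change 2.16, adjusted p = 0.000174), and Egln3, a prolyl hydroxylase that marks HIF for decay and is itself a HIF target, was lower (-1.13, adjusted p = 0.000189). Epas1 lay at 13.8 to 28.6 CPM in NZBW/F1 and at 1.52 to 9.26 CPM in C57BL/6. Hif1a was at -0.12 (adjusted p = 0.38). Of 14 tested HIF targets outside glycolysis, P4ha2, a collagen prolyl hydroxylase, was higher (1.51) and Ndrg1 (-1.39), Car9, a carbonic anhydrase (-0.74), and Ak4, an adenylate kinase (-0.71), were lower. Among 11 regulators, Meis1, a stem cell transcription factor that drives Hif1a, was lower (-1.04, adjusted p = 0.000227), as was Ppargc1a, a coactivator of mitochondrial genes (-1.23, adjusted p = 0.000209). In the comparisons of F1-L with F1-P LSK, B6-O with B6-Y LSK and F1-L with F1-P CMP, limma called 0 genes of these pathway lists, and between 0 and 4 genes of a list had an unadjusted p under 0.05.

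The members moved together to different degrees over the 12 LSK libraries, which fall into the strains and share the libraries numbered 3. Pearson's r of a member with the mean of the other 9 was 0.98 for Gapdh, 0.96 for Pkm, 0.95 for Pgk1, 0.93 for Eno1, 0.92 for Gpi1 and 0.90 for both Pfkl and Ldha. It was lower for Hk2 (0.73), Aldoa (0.64) and Slc2a1 (0.47). Of all 15084 genes tested, those most like the mean of the members were Cuedc2, Def6, Rps7, Rplp0, Nbdy, Srgn, Bri3, Supt3, Dcaf4 and Rps2, with r from 0.97 to 0.99. Of these, Rps7, Rplp0 and Rps2 encode ribosomal proteins.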

How the data were processed

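The authors made single-end mRNA libraries from sorted bone marrow cells, aligned the reads to mm10 with STAR (version 2.6 in the submitters' processing notes), counted them per gene with HTSeq and normalized them with edgeR. The deposited values are CPM per gene, a signal relative to a library size scaled by 1 factor per sample, with LSK and CMP in separate tables. Whole read counts could be recovered for 100% of the deposited values (tolerance 0.02 reads), which gave 20001328 to 28493747 reads a library. The analysis plan had assumed plain CPM, and the test was kept. Values were tested as log2(CPM + 1) with limma 3.58.1 in R 4.3.3 (trended variance) for genes at 1 CPM or more in at least 3 libraries of the comparison. The libraries of a comparison entered its fit, and all 12 LSK libraries entered the strain average and the test of the difference between changes. P-values were adjusted after Benjamini and Hochberg over all tested genes. Python 3.11.15 was used for summaries. No test was made between LSK and CMP. Groups came from the sample labels.

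Alternatives were edgeR 4.0.16, DESeq2 1.42.0, other pseudocounts, filters and scalings, the replicate number as a block, and each library left out. The corrections for GC content and length, the sums with genes sharing sequence and the sets without named libraries were chosen after seeing the data. The fits were run on simulated counts with the same dispersion for all genes and no outlying library. That run does not test the spread seen between these libraries. The 10 members and all gene lists were chosen with earlier results of these data known. The genes named are the members, the called genes of the lists, and genes with the most similar pattern, and the genes sharing sequence were named after their values were seen. Libraries of a group differed by more than counting noise (chi-square of 10.9 or more per degree of freedom in all 18 pairs), so each counted as 1 sample. Gene IDs matched GENCODE M21 for 19770 of 19780 LSK and 18421 of 18428 CMP genes. Listed genes outside the tables were not analysed here.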

Additional observations from a re-analysis of the deposited data

How the results depend on the processing

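Hk2 and Gpi1 were called lower in NZBW/F1 LSK over both ages under all 29 alternatives and Pkm under 28, while Pgk1 was called under 20, Eno1 under 16 and Gapdh under 11. The cause of the changes below was not tested, apart from sets with fewer libraries. Plain CPM of the library total moved the median of all genes by -0.39 in the strain average, -0.53 in young and -0.28 in old mice and by 0.22 in the change within NZBW/F1. On that scale the members called were 8 over both ages, 10 among young and 8 among old mice, with medians of -0.99, -1.03 and -0.92. Among all genes, 5576 were then called lower and 1029 higher in young mice, in place of 889 and 1442, and 2233 lower and 1002 higher in old mice, in place of 539 and 1128. On plain CPM the medians of the change within NZBW/F1 and of the difference between changes were 0.44 and 0.17. Over both ages 3 members were called with the median of ratios, DESeq2, the GC correction or the length correction, and 2 without the C57BL/6 libraries numbered 3. Among old mice 6 were called with DESeq2, 4 with all 12 LSK libraries in the fit, and 1 with the length correction or with sharing genes added. Deviations of same-numbered libraries correlated with r from -0.45 to 0.62 over 21 pairs, positive in all 7 pairs of libraries numbered 3, and not every pair exceeded 0.1, so the numbers were not taken as pairs. With the replicate number as a block, 5 members were called over both ages, 3 among young and 1 among old mice (Pgk1, adjusted p = 0.0444, with Gpi1 at 0.0652), and 0 in the other comparisons, so the block changed no other call. Leaving out 1 library gave 3 to 6 called members over both ages, 2 to 3 among young and 0 to 1 among old mice.

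The summed level per kilobase of the longest transcript was 619 CPM in F1-P, 751 in F1-L, 874 in B6-Y and 1104 in B6-O LSK, and 958 and 976 in F1-P and F1-L CMP, and on plain CPM it was 286 in F1-P and 399.9 in F1-L LSK. Over all genes, DESeq2 called 734 and edgeR's likelihood ratio test 659 genes between F1-L and F1-P LSK in place of 4, DESeq2 207 between B6-O and B6-Y in place of 0, 29 for the difference between changes in place of 0, and 351 in CMP in place of 1.

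Estimates near 0 changed sign. On plain CPM the difference between changes was 0.17 for Slc2a1, 0.20 for Aldoa, 0.11 for Gapdh, 0.17 for Pgk1, 0.071 for Eno1 and 0.16 for Ldha, Slc2a1 within NZBW/F1 was 0.083, and Pgk1 in CMP 0.0035. With length corrected, it was 0.084 for Aldoa, 0.033 for Pgk1 and 0.018 for Ldha, and Aldoa was 0.014 among old mice and -0.021 in CMP. Pkm was -0.0053 for the difference with scaling without immunoglobulin genes, and Aldoa in CMP -0.0029 with DESeq2 and -0.023 without F1-P 1 and F1-L 2. Without the C57BL/6 libraries numbered 3, Aldoa was 0.10 over both ages, the difference 0.076 for Slc2a1 and 0.031 for Aldoa, and Hk2 between B6-O and B6-Y -0.035. With 1 library left out, ranges spanned 0 for Slc2a1 within NZBW/F1 (-0.27 to 0.026), for Slc2a1 (-0.27 to 0.085) and Hk2 (-0.050 to 0.28) within C57BL/6, for Aldoa among old mice (-0.35 to 0.11), and for Pfkl (-0.38 to 0.025) and Aldoa (-0.24 to 0.084) among young mice. In CMP they did for Hk2 (-0.72 to 0.053), Gpi1 (-0.16 to 0.080), Aldoa (-0.025 to 0.078), Gapdh (-0.014 to 0.13) and Pgk1 (-0.079 to 0.069). For the difference between changes they did for Slc2a1 (-0.24 to 0.12), Hk2 (-0.093 to 0.23), Gpi1 (-0.022 to 0.30), Aldoa (-0.25 to 0.23), Gapdh (-0.36 to 0.024), Pgk1 (-0.25 to 0.058), Eno1 (-0.40 to 0.062), Pkm (-0.14 to 0.18) and Ldha (-0.28 to 0.068).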
